A study of Equus caballus with 25 samples.

Results

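CSF1, the colony-stimulating factor of macrophages (also called M-CSF), was represented on the array by 1 transcript, ENSECAT00000018749, of 7238 equine Ensembl transcripts. It was chosen by its probe name, and it was 1 of the 4930 transcripts that passed the filter on dim probes and were tested. RNA came from bronchoalveolar lavage (BAL) cells of 25 horses, with 1 array per horse and no pooling: 7 horses labelled Control (CTRL), 10 labelled IAD (the MEA group, mild to moderate equine asthma) and 8 labelled RAO (the SEA group, severe equine asthma). According to the methods, the CTRL group held standardbreds only, saddle horses prevailed in both diseased groups, and the SEA-affected horses were older than the others. Breed and disease cannot be told apart where CTRL is compared, nor age and disease where SEA is compared. The diseased horses were clinical cases sampled when they were presented, and the MEA-affected horses were taken only if their inflammation was neutrophilic. The labels give no treatment or time point.

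CSF1 is a secreted and membrane-bound cytokine that binds the receptor tyrosine kinase CSF1R on monocytes and macrophages and drives their survival, proliferation and differentiation. It is made by epithelial cells, fibroblasts, endothelial cells and by macrophages themselves, and in the lung it contributes to the upkeep of the alveolar macrophage pool. In the lavage, macrophages were the prevailing cells of CTRL and MEA-affected horses and neutrophils those of SEA-affected horses, as the methods and cytology of the study describe. RNA was taken from the unsorted cells, in which fewer cells of a type and less RNA per cell cannot be told apart.

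All values of CSF1 rest on one 60-base probe, printed here in lower case because it is the only stretch of the transcript that was measured. It is given 5′ to 3′ as in the array files, which give no position in the genome for it.
CSF1 probe: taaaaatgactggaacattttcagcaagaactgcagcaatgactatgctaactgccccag
The probe was spotted 2 times on each array, its GC content of 41.67% compared with a median of 45% over the 7238 probes, and no other probe had the same sequence. Which other CSF1 isoforms it would detect was not tested.

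CSF1 was a dim transcript in these cells. Of its 50 spots on the 25 arrays, 42 were well above background by the flag of the scanner software, and 0 were saturated. In the SEA group both spots were well above background on all 8 arrays, in the MEA group on 7 of 10 arrays (1 of the 2 spots on the other 3), and in the CTRL group on 4 of 7 arrays. CTRL replicate 4 had 1 such spot, and CTRL replicates 1 and 2 had none, so that CSF1 was measured above background on 5 of 7 CTRL arrays. The mean signal of the spot pair was between 1.40 and 7.59 times the local background. The level given below is the log2 intensity after cyclic loess normalization of all arrays, averaged over both spots. The spots of a pair differed by a median of 0.19 on this scale, and at most by 0.87, on an array where neither was well above background. Averaged over the arrays, the level of CSF1 was above that of 18.2% of the tested transcripts, as a description of probes whose signals are not comparable in amount.

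CSF1 levels were lowest in CTRL, intermediate and widely spread in MEA and highest in SEA. In the CTRL group the level ranged from 3.41 to 4.55 (median 3.99), with a mean of 3.93 ± 0.39 (SD, n = 7). In the MEA group it ranged from 3.04 to 6.78 (median 4.76), with a mean of 4.80 ± 1.24 (SD, n = 10). In the SEA group it ranged from 4.80 to 7.44 (median 6.45), with a mean of 6.33 ± 0.88 (SD, n = 8). The SEA and CTRL groups did not overlap. The MEA group overlapped both: 6 of its horses exceeded every CTRL horse, 2 were lower than any CTRL horse, and 5 exceeded the lowest horse of the SEA group. Only 2 horses of the SEA group exceeded every horse of the MEA group. With scaling to the 75th percentile, under normexp and without normalization between arrays, 4 MEA-affected horses exceeded every CTRL horse, and 6, 7 and 5 exceeded the lowest horse of the SEA group.

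**Figure D1:**
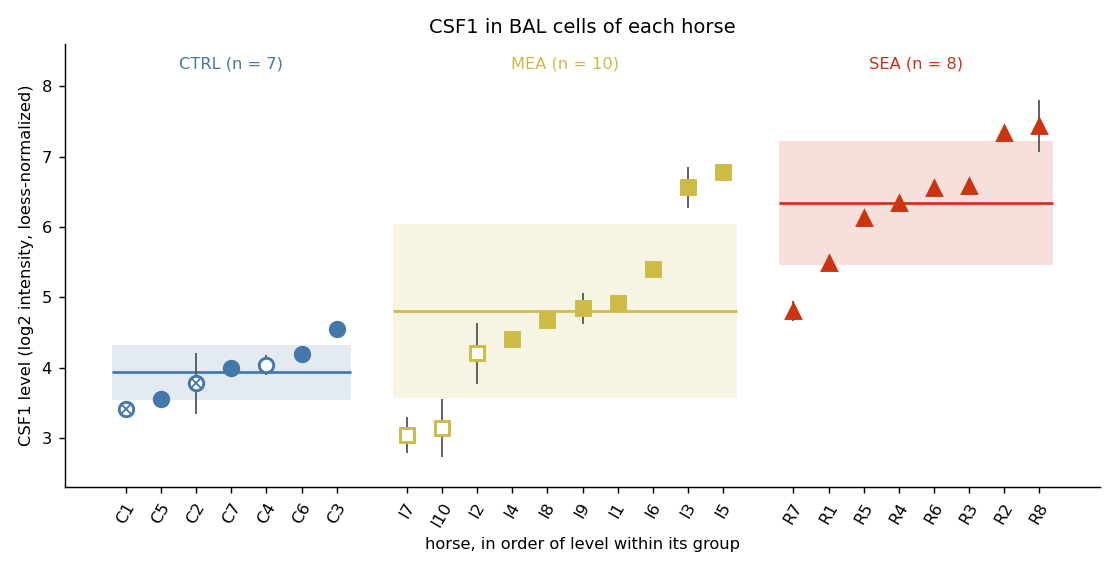
Level of CSF1 in each of the 25 horses (vertical axis, log2 intensity after cyclic loess normalization), ordered by level within CTRL (horse names starting with C), MEA (I) and SEA (R). Symbols are means of 2 spots, thin vertical lines join the spots, horizontal lines and bands are group means ± SD, open symbols had 1 spot well above background and crossed open symbols none. All SEA symbols sit above all CTRL symbols, and the MEA symbols span from 3.04 to 6.78.

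Before normalization between arrays, the processed signal of CSF1 (mean of both spots, linear scanner units) was 7.54 to 39.9 in CTRL (median 22.9), 7.46 to 114.0 in MEA (median 26.7) and 26.8 to 241.5 in SEA (median 91.6). On this scale 2 SEA-affected horses, replicates 1 and 7, lay below the highest CTRL horse, so that SEA and CTRL overlapped. Arrays differed in brightness also within groups, with 58.2% to 90.8% of their spots flagged as well above background. Within groups, the level of CSF1 before normalization moved with this share (r = 0.65, permutation p = 0.00059, and rho = 0.60, permutation p = 0.00425, 25 arrays, adjusted p = 0.00177 and 0.0127 over 3 relations). Its r was 0.61 without the 2 arrays farthest from the median share, and 0.94, 0.66 and 0.43 within CTRL, MEA and SEA. After loess normalization r was 0.23 (permutation p = 0.246, adjusted p = 0.246) and rho was 0.34 (permutation p = 0.126, adjusted p = 0.126), with r = 0.18 without those 2 arrays and r = 0.46, 0.31 and 0.09 within the groups. When arrays were scaled to their 75th percentile instead, r was 0.49 and rho 0.55 (permutation p = 0.00993 and 0.00957, adjusted p = 0.0149 and 0.0144), with r = 0.37 without those 2 arrays and r = 0.80, 0.47 and 0.49 within the groups. The tests below use the loess-normalized level because the methods of the study normalize by cyclic loess, and settings without it are given where they change a result.

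**Figure D2:**
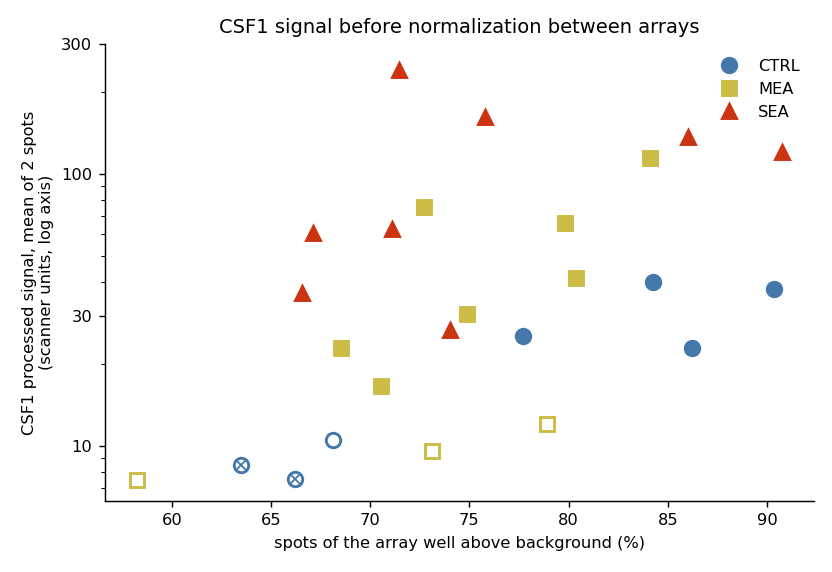
Processed signal of CSF1 before normalization between arrays (vertical axis, scanner units, log axis, mean of 2 spots) against the share of all spots of the same array that were well above background (horizontal axis, percent), 1 symbol per horse. Filled symbols had both CSF1 spots well above background, open symbols 1 and crossed open symbols none. SEA symbols run from 26.8 to 241.5 and overlap CTRL symbols, which run from 7.54 to 39.9 and are higher on arrays with a larger share of bright spots.

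Between SEA and CTRL, CSF1 was overexpressed by 2.40 on the log2 scale (SE 0.34, 95% interval 1.67 to 3.13), a 5.29-fold difference. Its adjusted p was 0.00189 by limma over the 4930 transcripts, and it ranked 7 by p and 38 by the size of the rise. A transcript was called if its adjusted p was below 0.1 and it changed 1.5-fold or more, and 32.5% of the tested transcripts passed in this comparison, 15.9% with higher levels in SEA. Every SEA array lay above every CTRL array for 1.52% of them, CSF1 included. The two-sided exact permutation test on the level of CSF1 alone gave p = 0.000311 over 6435 splits (adjusted p = 0.000932 over 3 comparisons). Within slides the difference was 1.90, 2.55, 1.86 and 3.45 on slides 1 to 4, each with 1 to 3 arrays per group. The call held in all alternatives run, but the size fell to 0.77 under normexp background correction, which adds an offset of 50 to all signals. With scaling to the 75th percentile or without normalization between arrays, 6 of the 8 horses of the SEA group, and under normexp 7, exceeded every CTRL horse.

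The mean of CSF1 was higher in MEA than in CTRL, but this difference was not called. The difference was 0.87 (SE 0.45, 95% interval -0.07 to 1.81), a 1.82-fold difference, with an adjusted p of 0.258 by limma, in a comparison where 9.74% of the transcripts were called. The exact permutation test gave p = 0.0972 over 19448 splits (adjusted p = 0.0972). MEA lay above CTRL on each of the 4 slides, by 0.97, 1.80, 1.02 and 0.47. CSF1 was not called in any alternative, and the difference fell to 0.31 under normexp. The interval includes no difference as well as a rise of 1.81 on the log2 scale, so that equal levels are not shown.

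Between SEA and MEA, CSF1 was 1.54 higher in SEA (SE 0.48, 95% interval 0.53 to 2.55), a 2.90-fold difference. Over all transcripts this was not called, with an adjusted p of 0.119 by limma in a comparison where 2.05% were called. The exact permutation test on CSF1 alone gave p = 0.0108 over 43758 splits (adjusted p = 0.0162). All 8 horses of the SEA group exceeded the MEA mean of 4.79775, but SEA replicate 7, at 4.79842, barely did. With scaling to the 75th percentile, SEA replicates 1 and 7 were lower than the MEA mean. On slides 1 to 4 the difference was 0.93, 0.76, 0.84 and 2.98, and slide 4 held 1 SEA and 5 MEA arrays. The call depended on the setting: it was made without SEA replicate 1 (adjusted p = 0.0777), MEA replicate 3 (0.0393) or MEA replicate 5 (0.063), with array weights (0.0136), with all 25 arrays in 1 fit (0.0596) and without normalization between arrays (0.0804), whereas the difference was 0.46 under normexp.

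**Figure D3:**
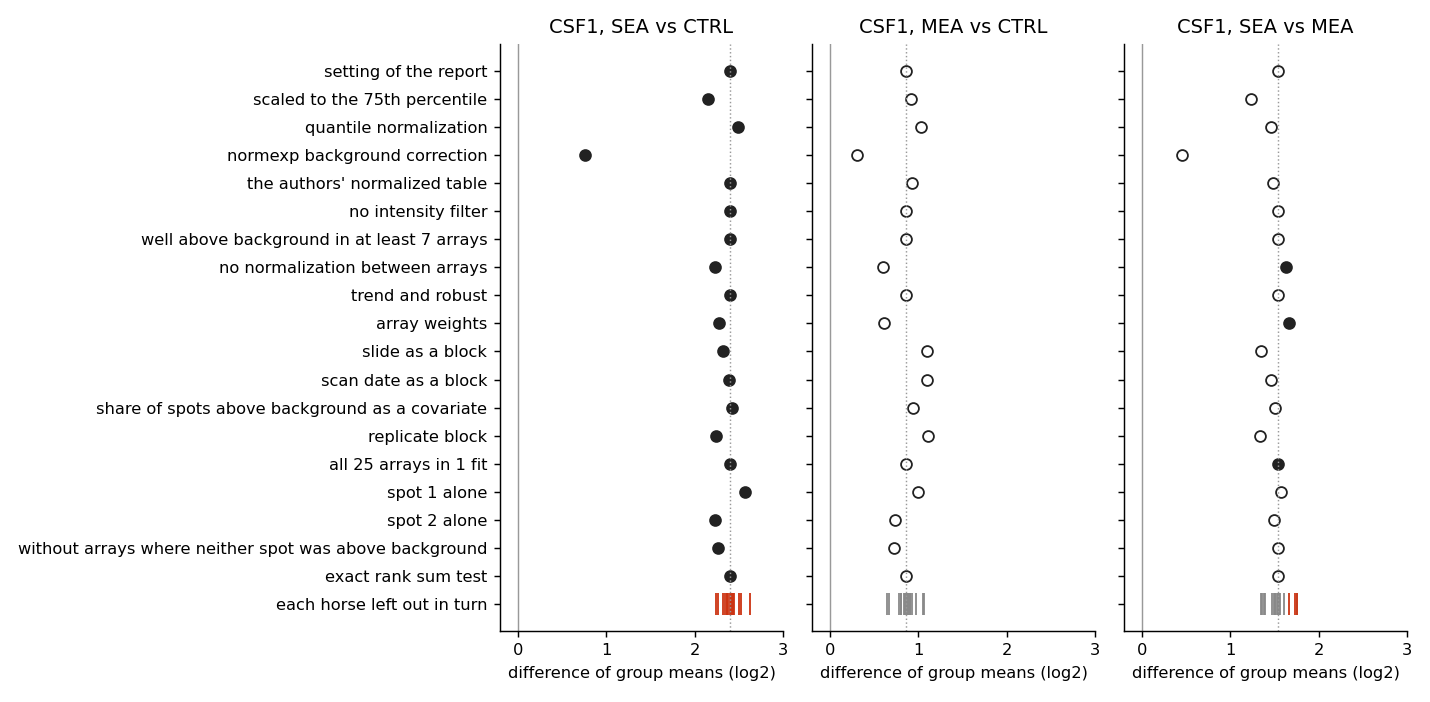
Difference in CSF1 between group means (horizontal axis, log2) in the 3 comparisons under the setting of the report and each alternative (rows). Filled circles were called by both the adjusted p and the fold limit, open circles were not, ticks in the last row are the values with each horse left out (red where adjusted p was below 0.1), and the dotted line marks the reported difference. SEA vs CTRL is filled in every row, MEA vs CTRL is open in every row, and all 3 differences are smallest under normexp, at 0.77, 0.31 and 0.46.

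The levels of the 10 MEA-affected horses, from high to low, were 6.78 (replicate 5), 6.57 (replicate 3), 5.39 (replicate 6), 4.92 (replicate 1), 4.84 (replicate 9), 4.68 (replicate 8), 4.41 (replicate 4), 4.20 (replicate 2), 3.14 (replicate 10) and 3.04 (replicate 7). The widest gap between neighbours was 1.17, between replicates 6 and 3, and left 2 horses above it. It took 31.3% of the MEA range (37.9% under normexp), and whether it parts the horses was not tested. Replicates 5 and 3 stood above the widest gap under all 5 settings that normalized the arrays to each other or took the authors' values, with gaps of 0.52 (normexp) to 1.45 (quantile normalization). Without normalization between arrays the widest gap was 0.69 and left replicate 6 above it too. Of the 3 lowest MEA arrays, replicates 2, 10 and 7, each had 1 of its 2 CSF1 spots well above background, and their order is not firm at that signal. No groups were made from this order.

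The spread of CSF1 between horses was wider in MEA than for most transcripts. Its SD of 1.24 in MEA exceeded that of 93.5% of the tested transcripts, whose median SD was 0.58. In SEA its SD of 0.88 exceeded that of 75.2% (median 0.56), and in CTRL its SD of 0.39 exceeded that of 35.0% (median 0.48). These percentiles are descriptions, and the part of the dim signal in the spread was not tested.

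The other growth factors and receptors of the colony-stimulating factor family and its relatives came from a list of 17 symbols. Symbols were known only for transcripts that the supplementary tables of the study list as changed in these horses, and 7 of the 17 had one, with 8 transcripts, of which 7 including CSF1 passed the filter. Of the 7, 4 were called higher and 1 lower in SEA than in CTRL, 0 were called in MEA against CTRL and 0 in SEA against MEA. Their median difference between SEA and CTRL was 1.24, beside -0.01 over all tested transcripts. Since the symbols were assigned through tables of changed transcripts, 86.1% of the 1684 tested transcripts with a symbol were called in this comparison, and the list is no independent evidence. That share was 25.2% in MEA against CTRL and 5.23% in SEA against MEA. The receptor of CSF1 itself had no transcript with a symbol here.

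CSF2RB, the beta chain shared by the receptors for GM-CSF, IL-3 and IL-5, rose in SEA with both its transcripts. ENSECAT00000013118 had a mean of 5.43 ± 0.65 (SD, n = 7) in CTRL, and SEA exceeded it with 6.90 ± 0.66 (SD, n = 8), by 1.47 (SE 0.33, adjusted p = 0.00989 by limma), and its median of 5.64 in MEA lay between a lowest value of 4.41 and a highest of 7.80. ENSECAT00000021519 rose by 1.24 (SE 0.37, adjusted p = 0.0249). Both differences fell under the fold limit with normexp, at 0.52 and 0.53. CSF3R, the G-CSF receptor of neutrophils, ranged from 5.69 to 10.57 in CTRL, from 6.63 to 13.87 in MEA and from 5.96 to 13.01 in SEA, so that the groups overlapped. It was 2.53 higher in SEA (SE 0.97, adjusted p = 0.0638), and the call, but not the size of the difference (2.14 to 2.45), was lost without any 1 of CTRL replicates 1, 4, 5 and 6 and SEA replicates 2, 3, 6 and 7, with adjusted p values of up to 0.139. LIFR, the receptor of leukemia inhibitory factor, fell by 0.91 (SE 0.30, adjusted p = 0.0369). Its CTRL mean was 5.02 ± 0.80 (SD, n = 7), and that of SEA was 4.11 ± 0.38 (SD, n = 8). It was no longer called under normexp (adjusted p = 0.137) or without CTRL replicates 1 and 2, on which CSF1 was not above background (adjusted p = 0.126). KITLG, the stem cell factor that binds KIT, differed by -1.02 between SEA and CTRL and did not pass (SE 0.52, adjusted p = 0.154), but it did without CTRL replicate 7 (adjusted p = 0.0700) or SEA replicate 7 (0.0917) and in 3 other alternatives (0.0373 to 0.0901). FLT3LG, the ligand of FLT3, differed by 0.64 and did not pass either (SE 0.29, adjusted p = 0.110), but it did without CTRL replicate 7 (adjusted p = 0.0722), SEA replicate 1 (0.0258) or SEA replicate 4 (0.0821) and in 4 other alternatives (0.0265 to 0.0890). LIF, a cytokine of the same wider group, did not pass the filter on dim probes.

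Genes downstream of the CSF1 receptor were taken from a list of 37 symbols, of which 13 had a symbol-bearing transcript, with 16 transcripts, all tested. All 16 were called higher in SEA than in CTRL (median difference 1.38), 2 in MEA against CTRL and 0 in SEA against MEA. These counts are to be read beside the 86.1%, 25.2% and 5.23% of symbol-bearing transcripts called in either direction in the same comparisons. The count in SEA against CTRL was 9 of 16 under normexp. SOCS3, a feedback inhibitor of cytokine signaling, rose by 2.44 (SE 0.58, adjusted p = 0.0129) with ENSECAT00000001789 and by 2.32 (SE 0.61, adjusted p = 0.0167) with ENSECAT00000028931. LYN, a Src family kinase of myeloid cells, rose by 2.06 (SE 0.43, adjusted p = 0.00788), from a CTRL range of 8.15 to 10.22 to an SEA range of 10.04 to 12.91. The 2 transcripts called in MEA, one of the ubiquitin ligase CBL and one of the transcription factor TFEC, were chosen after their values were seen. Their adjusted p values were 0.0899 and 0.0897, and in 13 of the 16 alternatives other than leaving out a horse the count was 0 or 1. Leaving out any horse other than MEA replicate 7 also gave 0 or 1. The other CBL transcript was not called in MEA against CTRL (adjusted p = 0.268 by limma).

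Genes that control survival of myeloid cells came from a list of 10 symbols, of which 5 had a tested transcript, and 5 of 5 were called higher in SEA than in CTRL and 0 in MEA, beside 86.1% and 25.2% of the symbol-bearing transcripts called in either direction in these comparisons. CFLAR, an inhibitor of death receptor signaling, rose by 1.76 (SE 0.47, adjusted p = 0.0176). MCL1, an anti-apoptotic member of the BCL2 family, rose by 1.56 (SE 0.36, adjusted p = 0.0116), from 12.75 ± 0.68 (SD, n = 7) to 14.31 ± 0.78 (SD, n = 8). PIM1, a survival kinase, rose by 1.49 (SE 0.39, adjusted p = 0.0169).

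Markers of the cells in the lavage changed along with CSF1 between the groups, and their part in the result was not tested. The counts below stand beside 86.1% of symbol-bearing transcripts called in either direction in SEA against CTRL and 25.2% in MEA against CTRL. Lists called almost in full in SEA are thus near the share for SEA. Of 6 neutrophil transcripts, 5 were called higher and 1 lower in SEA than in CTRL, and their mean level per array ranged from 7.69 to 10.96 in CTRL, from 8.58 to 13.65 in MEA and from 7.68 to 13.25 in SEA. These 6 calls became 3 without CTRL replicate 1 or SEA replicate 2 and 2 without CTRL replicate 4. TREM1, an activating receptor of neutrophils and monocytes, rose by 3.60 (SE 0.84, adjusted p = 0.0119) and 3.50 (SE 0.82, adjusted p = 0.0122) with its 2 transcripts. LTF, which encodes lactoferrin of neutrophil granules and of airway glands, fell by 2.10 (SE 0.76, adjusted p = 0.0515), and no longer passed without CTRL replicate 4 (adjusted p = 0.103). Of 5 macrophage transcripts, 1 was called in SEA: CD68, a lysosomal protein of phagocytes, rose by 0.84 (SE 0.30, adjusted p = 0.0465), and without CTRL replicate 1 the difference was 0.71 and not called (adjusted p = 0.105). The mean macrophage level per array ranged from 8.43 to 10.37 in CTRL, from 8.81 to 10.72 in MEA and from 8.89 to 10.22 in SEA. The macrophage transcripts not called in SEA differed in both directions, and they are named outside the naming rule given below. MARCO, a scavenger receptor of alveolar macrophages, differed by -1.12 between SEA and CTRL (SE 0.58, adjusted p = 0.163), and VSIG4 by -0.54 (SE 0.66, adjusted p = 0.579). The 2 transcripts of SIGLEC1 differed by 0.35 (SE 0.24, adjusted p = 0.290) and 0.49 (SE 0.26, adjusted p = 0.172). All 8 airway epithelial transcripts fell in SEA, and their mean level ranged from 8.77 to 10.71 in CTRL, from 7.19 to 9.89 in MEA and from 4.70 to 8.95 in SEA. The largest falls among them were in the adhesion protein EPCAM, by 2.55 (SE 0.71, adjusted p = 0.0191), and in the ciliary genes SPAG6, by 2.52 (SE 0.81, adjusted p = 0.0325), and TEKT1, by 2.52 (SE 0.76, adjusted p = 0.0254). In MEA against CTRL, 2 macrophage transcripts were called higher, both of the same gene, SIGLEC1 (adjusted p = 0.0243 and 0.0136 by limma). CD68, MARCO and VSIG4 were not called there. Called lower were 1 neutrophil transcript and 6 of the 8 epithelial transcripts. The epithelial count was 2 without CTRL replicate 1, 4 or 6 and 3 without MEA replicate 5, and the neutrophil count was 0 without CTRL replicate 3, 4 or 6 and 2 without MEA replicate 6. Of the fibroblast and endothelial list only VWF was tested, and it was not called in any comparison. The lymphocyte and mast cell lists had no transcript with a symbol.

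To ask which transcripts varied with CSF1 between horses of the same group, each of the other 4929 tested transcripts was fitted on the level of CSF1 with an intercept per group, so that group means played no part. At an adjusted p below 0.1 by limma, 365 transcripts (7.41%) were called, 221 of them (4.48%) rising with CSF1 and 144 falling. This count fell most when MEA-affected horses were left out. MEA was the group in which CSF1 varied most and also the largest group, and the part of either in the fall was not tested. The count was 51 without MEA replicate 5, 139 without MEA replicate 3, 228 without MEA replicate 7, 235 without CTRL replicate 1, 238 without SEA replicate 2 and 581 without SEA replicate 7. Without the MEA group it was 2, beside 197 without CTRL and 207 without SEA. Permuting the horses within groups gave 236 calls and permuting ranks 44, of which 213 and 43 were among the 365. The share that rose also depended on the scaling: 60.5% of the calls rose with CSF1 after loess normalization, 44.3% of 1067 after quantile normalization, 79.9% of 1301 when scaled to the 75th percentile and 99.9% of 1295 without normalization between arrays.

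**Figure D4:**
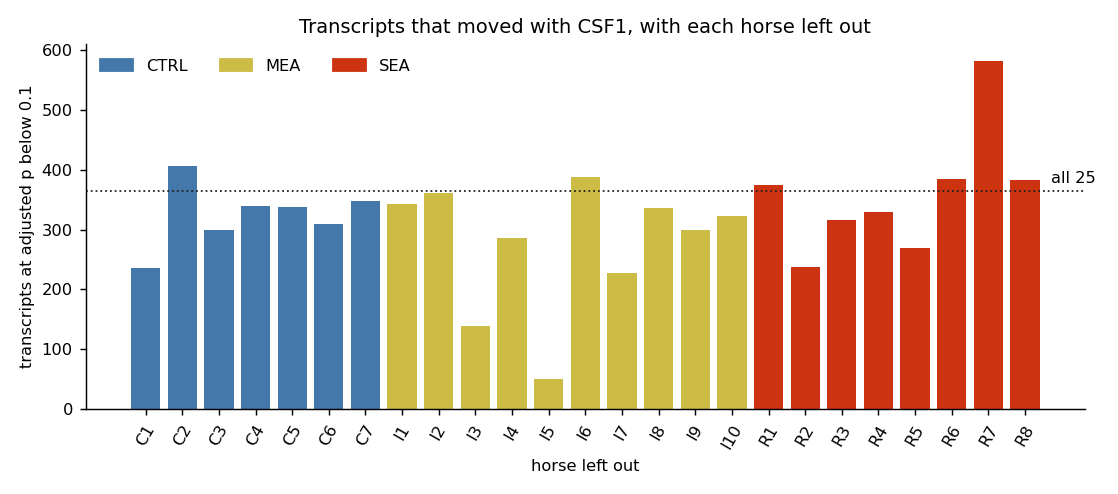
Number of the 4929 transcripts that moved with CSF1 within groups at an adjusted p below 0.1 (vertical axis) when the horse named on the horizontal axis was left out. Colours mark the group and the dotted line the 365 transcripts called with all 25 horses. The bars of I5 (51) and I3 (139), the MEA-affected horses with the most CSF1, are the shortest, and that of R7 (581) is the tallest.

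The transcript most like CSF1 was EMP1, which encodes a tetraspan membrane protein. Its level ranged from 5.20 to 7.59 in CTRL, from 5.14 to 10.35 in MEA and from 6.01 to 10.21 in SEA. Over the group-centred values of 25 arrays its Pearson r with CSF1 was 0.85 and its Spearman rho 0.84, both with a permutation p of 1e-05, the smallest that 100000 resamples can give, and adjusted p values of 0.0164 and 0.0246 over 4929 relations. Its r was 0.77 without the 2 arrays farthest from the median in CSF1 (MEA replicates 5 and 7), and 0.47, 0.90 and 0.83 within CTRL, MEA and SEA.

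ELK3, a transcription factor of the ETS family, had r = 0.81 and rho = 0.70 (permutation p = 3e-05 and 0.00046, adjusted p = 0.0192 and 0.076). Its r was 0.71 without the 2 arrays and 0.35, 0.91 and 0.74 within CTRL, MEA and SEA. CCL7, a chemokine that attracts monocytes, was a bright transcript with levels of 10.92 to 16.11 in MEA and 12.30 to 13.18 in CTRL. It had r = 0.79 and rho = 0.71 (permutation p = 0.00013 and 0.00046, adjusted p = 0.0229 and 0.076), r = 0.73 without the 2 arrays, and 0.15, 0.83 and 0.79 within the groups. EDN2, a vasoconstrictor peptide of the endothelin family, had r = 0.80 and rho = 0.64 (permutation p = 7e-05 and 0.00184, adjusted p = 0.0192 and 0.135), r = 0.70 without the 2 arrays, and 0.04, 0.88 and 0.80 within the groups. The rank correlation of EDN2 did not pass the adjustment, and its r in CTRL was near 0.

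**Figure D5:**
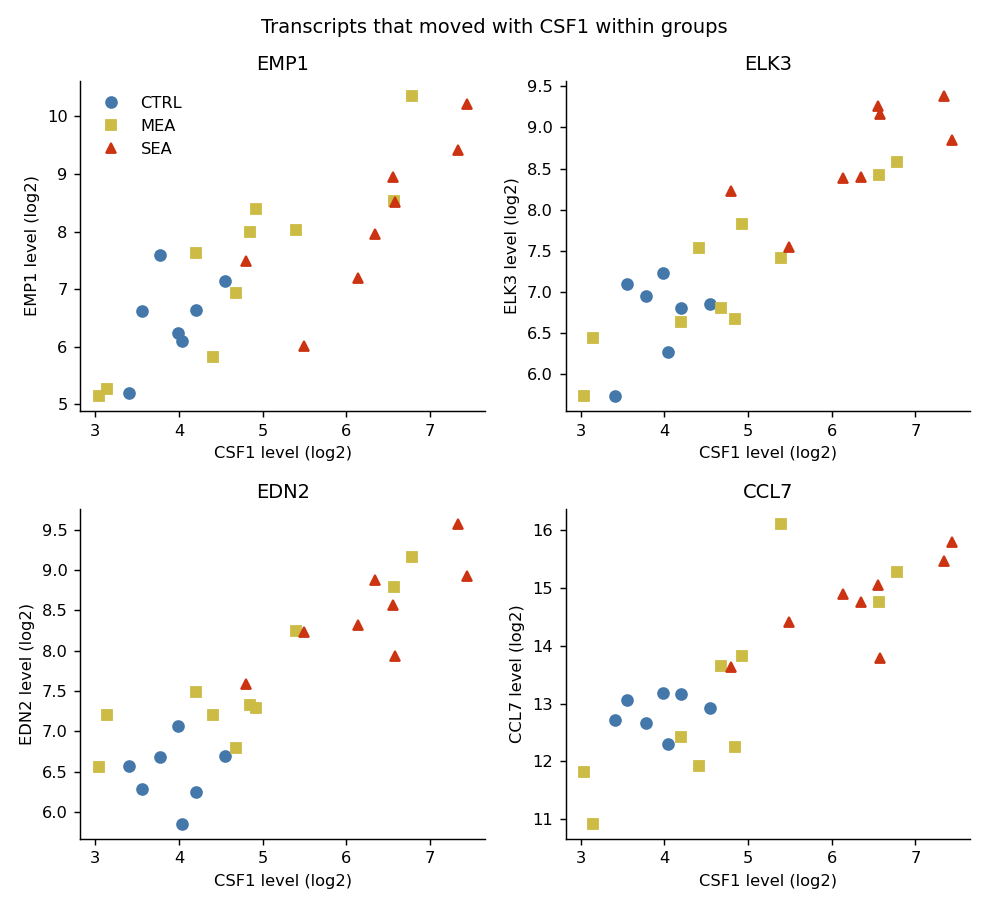
Levels of EMP1, ELK3, EDN2 and CCL7 (vertical axes, log2 intensity) against the level of CSF1 (horizontal axes, log2 intensity) in each horse, with 1 symbol per horse and the group given by colour and shape. The MEA and SEA symbols rise with CSF1, and r within CTRL is 0.47 for EMP1 but 0.04 for EDN2.

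The others described among the 10 highest were SLC20A1, a phosphate transporter (r = 0.78, rho = 0.71), TSC1, an inhibitor of the mTOR pathway (r = 0.78, rho = 0.78), ENSECAT00000023191, which has no symbol here (r = 0.77, rho = 0.68), CYLD, a deubiquitinase that limits NF kappa B signaling (r = 0.77, rho = 0.61), and IRF8, a transcription factor of the macrophage lineage (r = 0.76, rho = 0.67). Their permutation p values for r were between 2e-05 and 0.00017 and the adjusted ones between 0.0192 and 0.0254, and their permutation p values for rho were between 3e-05 and 0.00352 and the adjusted ones between 0.0493 and 0.152. Without the 2 arrays r lay between 0.67 and 0.75, and within CTRL, MEA and SEA between 0.23 and 0.52, 0.78 and 0.90, and 0.55 and 0.90. By limma, 8 of these 9 transcripts stayed called with each horse left out in turn, and ENSECAT00000023191 did not without MEA replicate 5 (adjusted p = 0.12). None of the 9 was called when the MEA group was left out.

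The 5 transcripts that fell most as CSF1 rose were FANCF, a protein of DNA crosslink repair (r = -0.76, rho = -0.63), ENSECAT00000018585 (r = -0.75, rho = -0.73), NR3C2, the mineralocorticoid receptor (r = -0.74, rho = -0.77), ECH1, an enzyme of fatty acid oxidation (r = -0.74, rho = -0.75) and ENSECAT00000010768 (r = -0.74, rho = -0.69). Their permutation p values for r lay between 1e-05 and 0.00023, adjusted to 0.0164 to 0.0298, and those for rho between 8e-05 and 0.0026, adjusted to 0.0548 to 0.139. Without the 2 arrays r lay between -0.69 and -0.62. ECH1 had r of -0.68, -0.70 and -0.85 within CTRL, MEA and SEA, whereas FANCF had -0.06, -0.89 and -0.63. Without normalization between arrays the slope of ENSECAT00000018585 turned to a rise, and 3 of the other 4 lost their call, the exception being NR3C2.

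Within single groups the transcripts with the highest r differed, and these values are descriptions of the highest of 4929. In CTRL they were CDK17, a cyclin-dependent kinase (r = 0.93), and the immunoglobulin chains IGLC1 and IGHG4 (each r = 0.92), over 7 arrays of which 2 did not measure CSF1 above background. Over the 25 arrays none of these 3 was called, with adjusted p values of 0.469, 0.418 and 0.362 by limma. In MEA they were ENSECAT00000011102 (r = 0.95), another transcript without a symbol (r = 0.92) and ELK3 (r = 0.91). In SEA they were a transcript without a symbol and MEF2A, a transcription factor (each r = 0.95), and MATK, a tyrosine kinase of blood cells (r = 0.95). MATK was also called over all arrays (adjusted p = 0.0148) and MEF2A was not (adjusted p = 0.362).

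Of the lists above, the members that moved with CSF1 within groups were named after their values were seen. Of 6 transcripts of relatives of CSF1, 1 was called: CSF2RB, with ENSECAT00000013118 (r = 0.61, rho = 0.53, permutation p = 0.0038 for r, adjusted p = 0.0868, and adjusted p = 0.213 for rho). The other CSF2RB transcript, ENSECAT00000021519, was not called (r = 0.51, rho = 0.50, adjusted p = 0.111 by limma), with r of 0.02 within CTRL. Of the 16 transcripts of receptor signaling, 4 were called, IRF8 and the kinase FYN (r = 0.75, rho = 0.74) and the transcription factors MAF (r = 0.58, rho = 0.50) and ETS2 (r = 0.58, rho = 0.56), all rising. By permutation, r passed for IRF8 and FYN (adjusted p = 0.0192 for each) but not for MAF (0.136) or ETS2 (0.121), and r of MAF was 0.32 without the 2 arrays. FYN had r of 0.69, 0.80 and 0.81 within CTRL, MEA and SEA. Of the 5 survival genes, 2 were called, BCL2 (r = 0.67, rho = 0.72) and MCL1 (r = 0.59, rho = 0.63), with r of 0.74, 0.77 and 0.59 and of 0.60, 0.83 and 0.18 within the groups. Both r and rho of BCL2 passed by permutation (adjusted p = 0.0631 and 0.0719). For MCL1, r passed by permutation (adjusted p = 0.0868) but rho did not (0.143). Of the 6 neutrophil transcripts 1 was called, ENSECAT00000018429 of TREM1 (r = 0.53, rho = 0.42, adjusted p = 0.0844 by limma but 0.158 by permutation), and 0 of 5 macrophage and 0 of 8 epithelial transcripts were. The other TREM1 transcript was not called (r = 0.51, rho = 0.38, adjusted p = 0.103 by limma). MARCO had r = -0.46 with CSF1 (rho = -0.43, permutation p = 0.0189 for r, adjusted p = 0.175) and CD68 r = 0.18 (rho = 0.15, permutation p = 0.408 for r, adjusted p = 0.656). The transcripts of SIGLEC1 had r = 0.21 and 0.23 (rho = 0.12 and 0.20) and VSIG4 had r = -0.36 (rho = -0.27). By permutation their adjusted p values for r were 0.569, 0.486 and 0.384. These counts stand beside 7.41% of all transcripts called. All list members carry a symbol, and 234 of the 1684 tested transcripts with a symbol, CSF1 included, were called, which is a larger share. Lists this short allow no reading of a share.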

How the data were processed

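RNA of BAL cells from 25 horses was hybridized to one-color arrays carrying 2 spots for each of 7238 transcripts. The authors deposited the spot intensity values of each array from Agilent Feature Extraction, with the background subtracted but no normalization across arrays, and 1 table of intensities normalized across arrays by cyclic loess in R 2.11.1. The genome build of the array design is not given in the sources used here.

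Log2 intensities were normalized by cyclic loess (span 0.7, 3 iterations) in R 4.3.3 with limma 3.58.1, values were averaged over both spots, and a transcript was dropped if 19 or more of the 25 arrays had it below 4.5. The values had a correlation of 0.9994 with the table the authors deposited. Groups came from the diagnosis labels. Adjusted p values are Benjamini-Hochberg values from limma (lmFit, eBayes), fitted to the 2 groups compared, and were called below 0.1 with a fold change of at least 1.5. Permutation tests were two-sided and used Python 3.11.15 with numpy 2.4.6. Both kinds of limma fit, between groups and on the level of CSF1, were tested on simulated data, and the other steps were not. Horses are separate animals, and the number of arrays limits the precision. Arrays have no sequencing depth, and signal over background was used in its place.

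CSF1, its lists and the rules were chosen with earlier results of these data known. Named were CSF1, the tested members of the colony-stimulating factor list, at most 3 called members per direction of every other list by size in SEA against CTRL, and the transcripts with the 10 highest and 5 lowest r, with the 3 highest in each group, of which 1 is not reported here. Members named outside this rule are said to be so in the text, and CBL, TFEC, MARCO, SIGLEC1, VSIG4 and VWF are among them. The reference gene table used here carries no equine Ensembl transcript identifiers, so that symbols came from the supplementary tables of the study, which name 1865 transcripts, and no positions are given. Alternatives were other normalizations, background corrections, filters, variance models, blocks and covariates, single spots, rank and permutation tests, and each horse left out. No normalization between arrays, leaving out arrays with CSF1 in the background, and leaving out a group were added after seeing the data.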

Additional observations from a re-analysis of the deposited data

Results flagged for a closer look

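Of 111 groups of horses examined for the 37 transcripts named or listed for their likeness to CSF1, 10 held a horse set apart from the rest, measured as its gap to the nearest horse over the range of the group, and chance flags about 1 in 20 groups. CSF1 itself held none. In the MEA group the limit was 0.466, and replicate 3, second in CSF1, was highest in 6 transcripts. Its level of CSF3R was 13.87 beside 10.03 in the next horse (share of the range 0.530). For SOCS3 it was 9.03 beside 7.42 (0.479, ENSECAT00000001789) and 9.96 beside 7.52 (0.569, ENSECAT00000028931). LYN stood at 12.76 beside 10.55 (0.688), CFLAR at 9.38 beside 7.45 (0.555) and MCL1 at 15.40 beside 13.87 (0.501). MEA replicate 1 was lowest in CDK17, at 5.90 beside 7.10 (0.503). In the SEA group, where the limit was 0.526, replicate 1 was lowest in both transcripts of TREM1, at 10.00 beside 13.70 (0.597, ENSECAT00000018405) and 10.12 beside 13.43 (0.546, ENSECAT00000018429), and in LTF, at 4.10 beside 7.89 (0.564). These transcripts were measured on the same arrays, so the flags of one horse are not independent. CSF3R of MEA replicate 3 exceeded the highest SEA level of 13.01. Both TREM1 levels of SEA replicate 1 lay below the MEA medians of 10.68 and 10.38. In the cytology of the study, however, macrophages prevailed in the MEA-affected horse of this number and neutrophils in the SEA-affected one. The reason for this mismatch was not tested.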

How the results depend on the processing

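The rise of CSF1 in SEA against CTRL passed in all 18 alternatives and with each horse left out (2.25 to 2.62), and CSF1 was not called in MEA against CTRL in any of them (0.65 to 1.06 with a horse left out). Between SEA and MEA it was called without normalization between arrays (1.62), with array weights (1.67) and with all 25 arrays in 1 fit (1.54), and it ranged from 1.34 (without MEA replicate 7) to 1.76 (without MEA replicate 5) with a horse left out.

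The 365 transcripts moving with CSF1 became 1301 when scaled to the 75th percentile, 1067 by quantile normalization, 187 by normexp, 673 in the table of the authors, 220 without the intensity filter, 1295 without normalization between arrays, 215 with array weights, 197 without CTRL, 2 without MEA, 207 without SEA, 236 by permutation and 44 by ranks, and ranged from 51 (without MEA replicate 5) to 581 (without SEA replicate 7) with a horse left out. The slope of ENSECAT00000018585 turned to 0.0686 without normalization between arrays. The cause of these changes was not tested, other than fewer arrays where a group or horse was left out.

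Of the lists in SEA against CTRL, normexp left 2 calls in the colony-stimulating factor family and 9 in receptor signaling, and the macrophage count was 0 by quantile normalization and 2 with slide as a block. With a horse left out the macrophage count ranged from 0 (without CTRL replicate 1) to 1, and the neutrophil count from 2 (without CTRL replicate 4) to 6. In MEA against CTRL, the count in receptor signaling was 0 under normexp, scaling to the 75th percentile, no filter, quantile normalization, the filter on background flags, no normalization, slide, scan date, the covariate and the arrays with CSF1 in the background left out, and 1 with the table of the authors and by rank sums. The macrophage count was 0 under normexp and no normalization and 1 without the arrays with CSF1 in the background. The neutrophil count was 0 with all arrays in 1 fit. The epithelial count was 2 with slide as a block and with all arrays in 1 fit, and 1 without those arrays. With a horse left out these counts ranged from 0 to 2 (signaling), 2 to 3 (macrophage), 0 to 2 (neutrophil) and 2 to 7 (epithelial).

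With a replicate block, the differences of CSF1 were 2.25 (SEA against CTRL), 1.11 (MEA against CTRL) and 1.34 (SEA against MEA), with no call changed, 116 transcripts moved with CSF1, the macrophage count was 0 in SEA and 1 in MEA, and signaling and neutrophil counts in MEA were 0. The replicate numbers do not pair the horses: same-numbered horses deviated with r from -0.17 to 0.31, -0.44 to 0.36 and -0.36 to 0.41 in the 3 comparisons. Arrays have no depth, and the dim signal of CSF1 limits its order among the lowest horses.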
